A study of Solenopsis invicta with 4 samples.

Results

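Small heat shock proteins of Solenopsis invicta, the red imported fire ant, were followed in whole adult medium workers kept for 24 h at 10, 20, 30 or 40 °C. The ants were wild type, came from colonies held at 25 °C, and were compared with workers at 30 °C, which the labels name as the control. Each temperature had 1 library. Members were the assembled contigs whose nucleotide or KEGG annotation gave LOC105206242, LOC105199144 or LOC105195168, or whose best protein match was named lethal(2)essential for life or alpha-crystallin. The rule found 4 contigs among 9001 listed in at least 1 of the 3 deposited tables. Of these, 3 were found by gene number and 1 by its protein match only.

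Small heat shock proteins are chaperones built around an alpha-crystallin (HSP20) domain. They form oligomers that bind unfolding proteins without using ATP and hold them until HSP70 and its partners can refold them. In insects heat shock factor switches many of them on, and several are also made without stress, for example in muscle and in development. Lethal(2)essential for life, or l(2)efl, is the Drosophila gene that gave most of the ant members their name.

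With 1 library a group no test between temperatures was possible. Every difference is one between 2 libraries, and the spread between ants is unknown. Each ratio carries an exact 95% interval that covers counting error only. Levels are in CPM, the read counts scaled to a common total by way of the authors' scaled library sizes. These lay between 23204029 at 20 °C and 43393168 at 40 °C and are not read totals. The total reads implied by the deposited FPKM values were 0.943 of the 30 °C total at 20 °C and 0.793 at 40 °C. Each table lists only contigs past the authors' raw p limit of 0.05, out of 26997 contigs implied by the authors' deposited tables. Among contigs with at least 1000 reads at 30 °C, the smallest absolute fold in the authors' deposited tables was 2.36 at 10 °C, 2.36 at 20 °C and 2.35 at 40 °C. A member missing from a table therefore has no value at that temperature and is not called unchanged. In whole ants, fewer cells of a type and less RNA per cell cannot be told apart.

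The members differed in what their contigs matched. The contig of LOC105206242 matched Drosophila l(2)efl, which the deposited annotation places in the response to heat, protein refolding and the Z disc of muscle. It also carried a Pfam HSP20 domain. The contig of LOC105199144, named Hsp-12.2-like at the nucleotide level and alpha-crystallin B chain at the protein level, matched Drosophila CG14207 and also carried an HSP20 domain. The contig of LOC105195168, named protein lethal(2)essential for life, had neither a UniProt match nor a Pfam domain. The 4th contig, c99804_g1_i1, had no ant gene number, UniProt match or Pfam domain. Its best protein match was a lethal(2)essential for life-like protein of the ant Trachymyrmex zeteki, while its best nucleotide match was a non-coding RNA of Trachymyrmex cornetzi. In the tables only the contigs of LOC105206242 and LOC105199144 carried the HSP20 domain, and only at 40 °C was either listed.

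The comparison of 40 with 30 °C asks how these transcripts stood after a day of heat. All 4 contigs were listed, 2 higher and 2 lower at 40 °C. The higher ones were the 2 contigs with a Pfam HSP20 hit, and the lower ones were the 2 contigs without one. Both lower contigs had a lethal(2)essential for life protein match. The hits are those of assembled contigs, so a contig without one does not show that its gene lacks the domain. Among the 2210 contigs in that table whose mean reached 1 CPM, 40.1% were higher by 2-fold or more and 43.4% lower by as much, so a split of 2 and 2 lies near that background. The median log2 ratio of the 4, with a pseudocount of 1 CPM, was -0.00083, against -0.82 over all 2210. That median is only the midpoint of 1.29 for LOC105199144 and -1.29 for LOC105195168. No member lies near it, and the authors' filter leaves out small changes, so nothing is read from the 2 medians.

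LOC105206242 was the most abundant member, with 670 CPM at 40 °C (29061 reads) against 211 CPM at 30 °C (8058 reads). It was 3.18-fold higher at 40 °C (3.10 to 3.26). LOC105199144 had 161 CPM at 40 °C (6984 reads) against 65.4 CPM at 30 °C (2503 reads) and was 2.46-fold higher (2.35 to 2.58). Both of these chaperones thus stood higher in the heated library. That their counting intervals exclude equal levels follows from the authors' filter and is not read as a finding. Among contigs with at least 1000 reads at 30 °C, the smallest absolute fold listed at 40 °C was 2.35. The filter did not set the direction.

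The contig c99804_g1_i1 had 15.0 CPM at 40 °C (653 reads) against 46.9 CPM at 30 °C (1795 reads), which is 3.12-fold lower (2.85 to 3.41). LOC105195168 had 6.54 CPM at 40 °C (284 reads) against 17.4 CPM at 30 °C (667 reads), 2.66-fold lower (2.31 to 3.07). Reads of family members with near-identical stretches can be split between contigs, so the division of reads among members is uncertain. The deposited FPKM values are scaled by total reads, which adds 0.52 to each log2 ratio at 40 °C when no pseudocount is used. On that scale LOC105206242 was 4.55-fold and LOC105199144 3.52-fold higher, c99804_g1_i1 was 2.18-fold lower, and LOC105195168 was 1.86-fold lower, short of 2-fold.

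**Figure D1:**
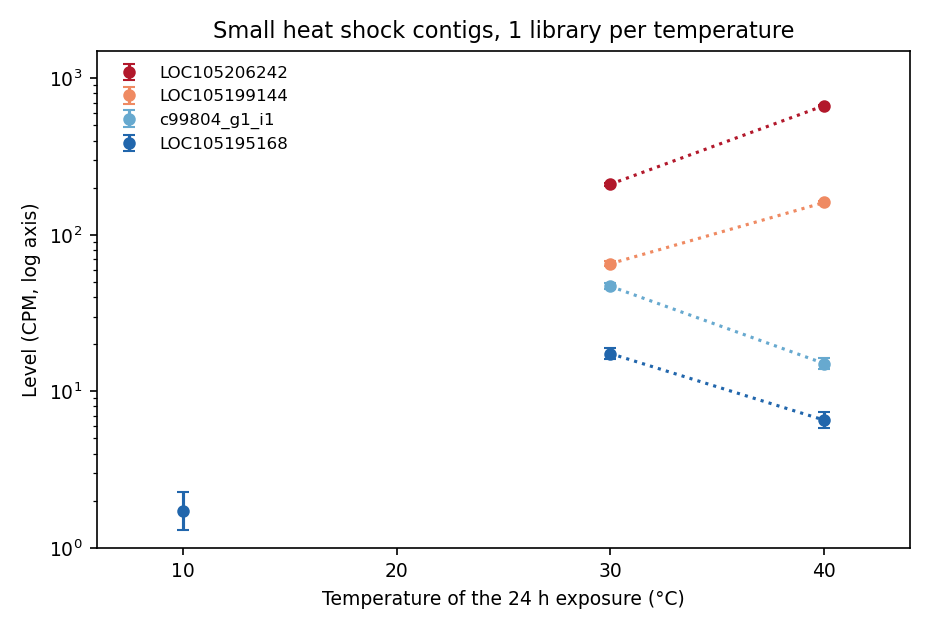
Level of each member contig (CPM, log axis) against the temperature of the 24 h exposure, 1 library per temperature. Bars are exact 95% Poisson intervals for counting error, most of them smaller than the points, a contig has a point only where a deposited table lists it, and dotted lines join its points at 30 and 40 °C. LOC105206242 and LOC105199144 lie higher at 40 °C than at 30 °C, the other two lower, and LOC105195168 is lowest at 10 °C.

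The ratio of one member's change to another's does not depend on the library scaling. The 40 over 30 °C ratio of LOC105206242 was 1.29 times that of LOC105199144 (95% Wald interval 1.23 to 1.36, counting error only). It was 8.47 times that of LOC105195168 (7.36 to 9.75) and 9.91 times that of c99804_g1_i1 (9.03 to 10.9). The ratios of the 2 lower contigs were not told apart by counting error, at 1.17 times (0.992 to 1.38) for LOC105195168 over c99804_g1_i1.

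Per length, LOC105206242 led at both temperatures and its lead was wider at 40 °C. At 40 °C the authors' FPKM values, which are scaled by contig length and total reads, were 461 for LOC105206242, 131 for LOC105199144, 12.2 for c99804_g1_i1 and 5.39 for LOC105195168. At 30 °C they were 102, 37.2, 26.6 and 10.1 FPKM for the same contigs. The order of the 4 was thus the same in both libraries, and neighbours in it differed beyond the counting intervals of their CPM levels. LOC105206242 stood 85.5 times above LOC105195168 in FPKM at 40 °C, against 10.1 times at 30 °C. At 40 °C 16 of the 4067 listed contigs had a higher FPKM than LOC105206242, against 55 at 30 °C.

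The make-up of the reads shifted with these differences. At 40 °C 78.6% of the 36982 reads on the 4 contigs came from LOC105206242 (exact 95% interval 78.2 to 79.0), against 61.9% of 13023 reads at 30 °C (61.0 to 62.7). The share of LOC105199144 was 18.9% at 40 °C (18.5 to 19.3) and 19.2% at 30 °C (18.5 to 19.9), within counting error of each other. The 2 contigs with an HSP20 domain together held 97.5% at 40 °C and 81.1% at 30 °C. In sum the 4 contigs had 852 CPM at 40 °C against 340.2 CPM at 30 °C, 2.50-fold higher (2.46 to 2.56). The shares and the sum cover only contigs that passed the authors' filter at 40 °C. Any small heat shock contig that did not pass is missing from both libraries, so they do not describe the whole family.

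**Figure D2:**
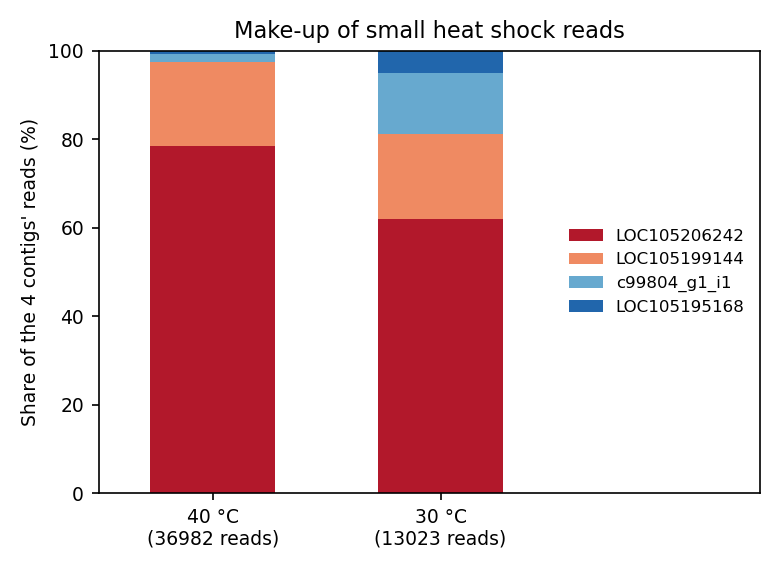
Share of the reads on the 4 member contigs (%) that each contributed in the 40 °C library (left bar, 36982 reads) and the 30 °C library (right bar, 13023 reads). LOC105206242 makes up 78.6% at 40 °C and 61.9% at 30 °C, while the parts of c99804_g1_i1 and LOC105195168 are smaller at 40 °C.

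In the cold, at 10 against 30 °C, LOC105195168 was the only member listed, and it was lower. Among the 2114 contigs of that table whose mean reached 1 CPM, 47% were lower by 2-fold or more and 36.2% higher by as much. LOC105195168 had 1.73 CPM at 10 °C (52 reads) against 17.4 CPM at 30 °C (667 reads), 10.1-fold lower (7.58 to 13.6). The FPKM scale gave 10.2-fold lower. Over the temperatures where it has a value, LOC105195168 thus stood at 1.73 CPM at 10 °C, 17.4 CPM at 30 °C and 6.54 CPM at 40 °C, with counting intervals that do not overlap. The ratios at 10 and at 40 °C share the 30 °C library. Without that library, LOC105195168 was 3.78-fold higher at 40 °C than at 10 °C (2.80 to 5.18), or 5.49-fold on the FPKM scale. The 30 °C columns were the same for all 1011 contigs shared by the tables for 10 and 40 °C, so these levels are on 1 scale.

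The comparison of 20 with 30 °C, mild cooling, listed 0 members. The background there was 31.4% of 1360 contigs higher by 2-fold or more and 48.3% lower by as much. LOC105206242, LOC105199144 and c99804_g1_i1 were not listed at 10 or 20 °C, and their levels at those temperatures were not analysed here.

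Other chaperones and co-chaperones gave the setting for the members at 40 °C. Of the 22 other contigs listed there, 21 were higher and 1 was lower. These are counts of contigs, and a gene can have more than 1. The lower one, from the HSP90 ATPase activator gene LOC105199399, had 6 reads at 40 °C against 116 at 30 °C. Another contig of that gene was 10.1-fold higher (4396 reads at 40 °C against 383 at 30 °C). Of the 20 whose mean reached 1 CPM, 18 passed 2-fold upward and 1 downward, with a median log2 ratio of 2.14. Over all 2210 listed contigs counted in the same way, 40.1% passed 2-fold upward and 43.4% downward. The most abundant, heat shock protein 83 (LOC105204027), the cytosolic HSP90, had 2035 CPM at 40 °C against 189 CPM at 30 °C. Contigs of 2 HSP70 genes, both named heat shock 70 kDa protein cognate 4, had 1425 CPM at 40 °C against 210.3 CPM at 30 °C for LOC105205549 and 1343 against 283 CPM for LOC105201936. These 3 were the only contigs of the list with more reads at 40 °C than LOC105206242. The log2 ratio of LOC105206242, 1.66, was below that of 13 of the 20 counted contigs, and that of LOC105199144, 1.29, was below 18 of them. The Samui-like BAG protein (LOC105202382) had 16177 reads at 40 °C against 4318 at 30 °C on its main contig, 3.30-fold higher, and 354 against 26 on a further contig, 12.0-fold higher (8.06 to 18.6). BAG proteins are co-chaperones of HSP70, and in mammals BAG3 joins it to small heat shock proteins. The Samui-like gene was picked from the list after its values were seen.

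**Figure D3:**
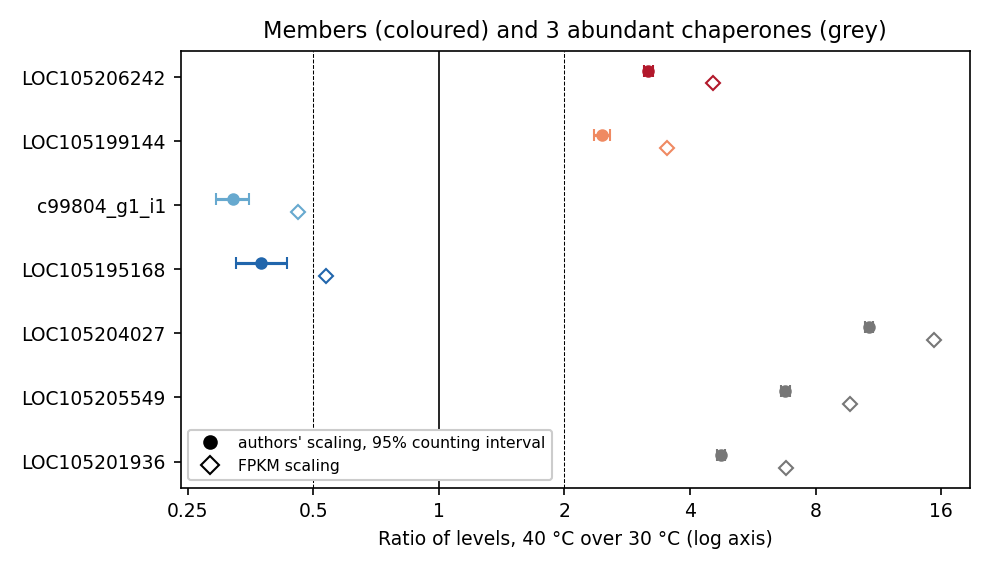
Ratio of levels at 40 over 30 °C (log axis) for the 4 members (coloured) and the 3 most abundant contigs of the chaperone list (grey). Filled points are on the authors' scaling with exact 95% counting intervals, open points on the FPKM scaling, and dashed lines mark 2-fold. The 2 higher members lie below all 3 chaperones, and on the FPKM scaling LOC105195168 is inside the dashed lines.

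**Figure D4:**
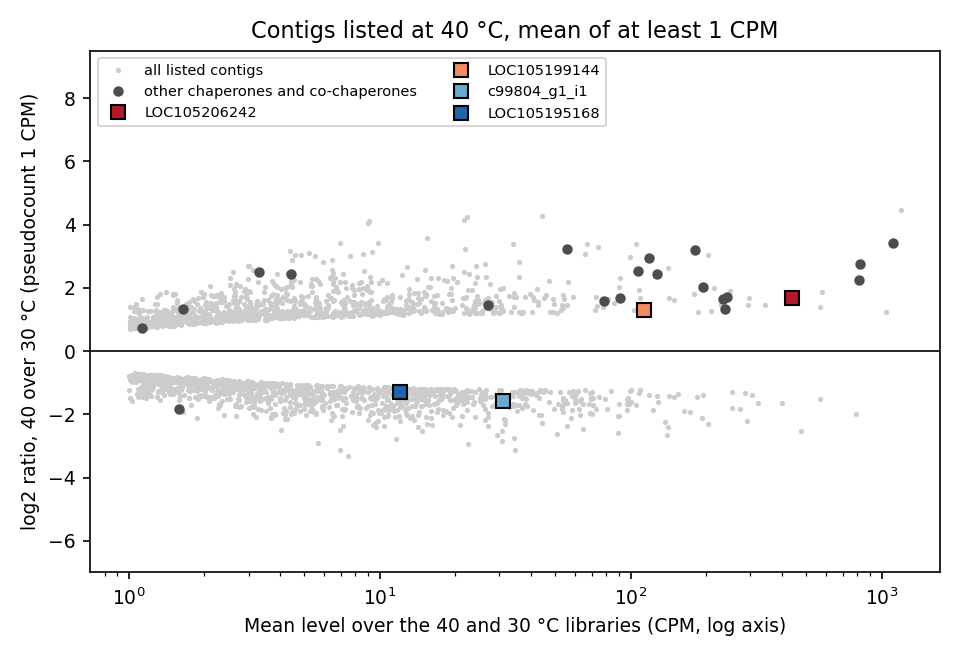
The log2 ratio of CPM at 40 over 30 °C (pseudocount of 1 CPM) against mean level (CPM, log axis) for the 2210 contigs whose mean reached 1 CPM. Light points are all contigs, dark points other chaperones and co-chaperones, and squares the members. The empty band around 0 comes from the authors' filter. Of the 20 dark points 18 are past 2-fold upward, and the squares lie on both sides of 0.

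At the cooler temperatures few chaperones were listed. Of the 4 at 10 °C whose mean reached 1 CPM, 3 passed 2-fold upward and 1 downward. Over all 2114 contigs counted in that way, 36.2% passed upward and 47% downward. Of 3 such chaperone contigs at 20 °C, 2 passed upward and 0 downward, against 31.4% and 48.3% of 1360 contigs. At 10 °C, 4 of 5 contigs were higher, among them T-complex protein 1 subunit beta (LOC105200812), part of a cytosolic chaperonin, with 6.03 CPM at 10 °C against 1.20 CPM at 30 °C. An HSP70 contig with a fungal best match had 5.60 CPM at 10 °C against 0.157 CPM at 30 °C. Subunit alpha of the same chaperonin (LOC105194305) had 86 reads at 10 °C against 25 at 30 °C, 4.39-fold higher (2.78 to 7.15). The contig of its subunit zeta (LOC105202463) had 3 reads at 10 °C against 137 at 30 °C, a ratio of 35.8-fold lower (12.0 to 176). That contig had a nucleotide match only and no protein match. At 20 °C, 2 of 3 were higher, of which 1 was the HSP70 contig with the fungal match, at 1.85 CPM against 0.157 CPM at 30 °C. The subunit beta contig had 4.83 CPM at 20 °C against 1.20 CPM at 30 °C, 4.02-fold higher. That of subunit zeta had 1.29 CPM at 20 °C against 3.58 CPM at 30 °C, 2.77-fold lower. The FPKM scale shifts log2 ratios at 20 °C by -0.64, and there subunit beta was 2.58-fold higher and subunit zeta 4.31-fold lower.

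LOC105195168 lies among other genes. In the RefSeq annotation of assembly UNIL_Sinv_3.0, which holds all 3 member genes, LOC105195168 overlaps the phosphodiesterase 8A gene LOC105195169, an enzyme that breaks down cyclic AMP, and the non-coding gene LOC113003572. The Cep78 homolog gene LOC105195170 lies inside LOC105195169. The contigs of these neighbours went the other way from LOC105195168 at 40 °C. The 4 listed phosphodiesterase contigs were 4.29-fold (2.86 to 6.64) to 24.8-fold (20.8 to 29.8) higher, and the Cep78 homolog had 2291 CPM at 40 °C against 103 CPM at 30 °C. At 10 °C a phosphodiesterase contig was lower, as LOC105195168 was, with 14 reads against 59 at 30 °C, and at 20 °C it had 11 reads. Whether the counting used strand is not given in the sources used here, so the gene that a read from a shared stretch came from cannot be told apart, although the contigs have separate counts.

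**Figure D5:**
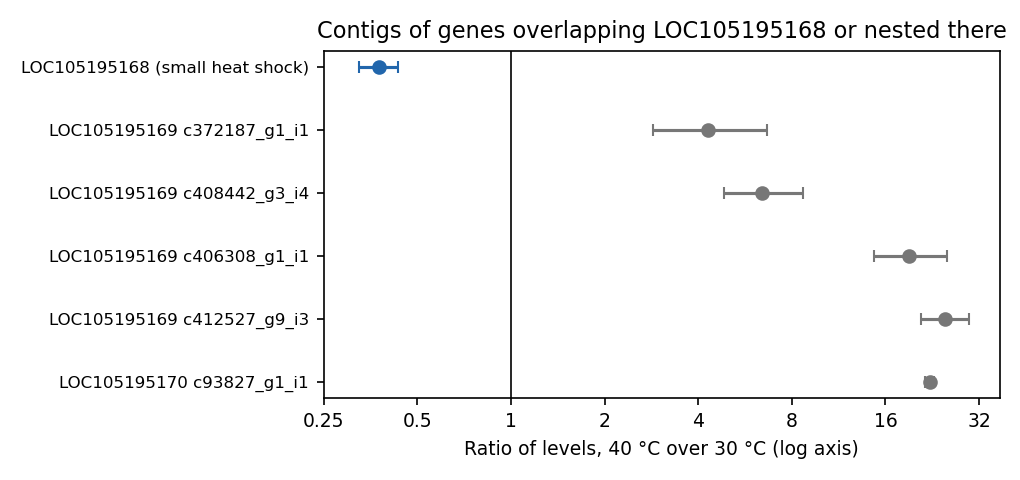
Ratio of levels at 40 over 30 °C (log axis) for the LOC105195168 contig and for the listed contigs of the overlapping gene LOC105195169 and of LOC105195170, which lies inside it. Bars are exact 95% counting intervals. The small heat shock contig is 2.66-fold lower, and all 5 neighbour contigs are at least 4.29-fold higher.

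The other members have fewer listed neighbours. LOC105199144 overlaps the gene LOC105199042, of which no contig was listed. Next to LOC105206242, a contig of LOC105199825, named D-2-hydroxyglutarate dehydrogenase, had 8.99 CPM at 40 °C against 3.21 CPM at 30 °C, 2.80-fold higher (2.28 to 3.45). On the far side of LOC105195168 the aquaporin-like gene LOC105207509 had 17 reads at 10 °C and 6 at 20 °C, against 84 at 30 °C.

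Some contigs without a small heat shock match share the first number of their identifier with a member, a relation whose meaning is not given in the sources used here. The unannotated c373790_g1_i1 shares it with the LOC105206242 contig, and was 4.97-fold lower at 40 °C (4.21 to 5.90, 174 reads against 763 at 30 °C) where LOC105206242 was higher. At 10 °C it had 182 reads against 763 at 30 °C. The unannotated c411760_g1_i1, which shares the number of the LOC105199144 contig, was 3.05-fold lower at 20 °C (2.08 to 4.61, 32 reads against 161 at 30 °C). The contig c407397_g2_i1, with the number of the LOC105195168 contig and a synaptotagmin nucleotide match, was 6.24-fold lower at 20 °C (3.26 to 13.4, 10 reads against 103 at 30 °C). A further contig, c412384_g1_i1, had the same non-coding nucleotide match as c99804_g1_i1 and was 2.52-fold higher at 10 °C (2.09 to 3.05, 332 reads against 168 at 30 °C).

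No member was listed at all temperatures, so likeness of pattern could be measured only for LOC105195168, over the 3 libraries at 10, 30 and 40 °C. The measure, chosen after the values were seen, was the root mean square difference of centred log2(CPM + 1). Of the 1011 contigs listed at both 10 and 40 °C, only those with a protein description were ranked, 1 contig per description. Contigs named hypothetical or uncharacterized, or without a protein match, were left out and may lie nearer. The nearest of those ranked was a contig of LOC105202481 matching a jockey-like mobile element protein, at 0.210. It had 2.03 CPM at 10 °C, 25.9 CPM at 30 °C and 10.7 CPM at 40 °C. Next came trichohyalin-like LOC105207112 at 0.321 and a contig named protein glass-like at 0.359.

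Tissue markers were looked up by description in the same tables. At 40 °C 4 of 5 fat body contigs were higher, with summed levels of 466 CPM at 40 °C against 147 CPM at 30 °C, and all 4 eye contigs were lower, at 39.6 CPM against 103 CPM. For muscle 1 of 3 was higher (25.3 CPM at 40 °C, 102 CPM at 30 °C), for venom gland 3 of 4 (24.5 and 8.80 CPM) and the only haemocyte contig was higher (2.21 and 0.731 CPM). At 10 °C all 7 venom gland contigs were higher (1436 CPM, against 474 CPM at 30 °C), as were all 3 muscle contigs (10.4 and 2.33 CPM), while 1 of 3 eye contigs was higher and no fat body or haemocyte contig was listed. At 20 °C, where no member was listed, 6 of 7 venom gland contigs, 1 of 2 eye, 1 of 2 muscle and 0 of 2 fat body contigs were higher. The higher eye match was a rhodopsin-sensitive cGMP phosphodiesterase contig at 10 °C and a beta-arrestin contig at 20 °C. The blue-sensitive opsin contig was lower at 10, 20 and 40 °C (7, 5 and 14 reads, against 37 at 30 °C). The fat body sum at 40 and 30 °C comes almost entirely from the apolipophorin contig c407294_g2_i1 (19729 reads at 40 °C against 5367 at 30 °C). The lower fat body contig matched the vitellogenin-3 gene and its flanking region (15 reads at 40 °C against 170 at 30 °C). Another vitellogenin-3 contig was higher (275 against 57 reads). The muscle matches include a myosin named non-muscle at 10 and 40 °C. Nearly all of the muscle sum at 40 and 30 °C comes from c446651_g1_i1 (1055 reads at 40 °C against 3876 at 30 °C), whose nucleotide match is tropomyosin-2-like but whose protein match is a plasma membrane calcium-transporting ATPase. These tissue counts take any difference in level and no level filter, and no share over all listed contigs was taken that way. Among contigs whose mean reached 1 CPM, 40.1% were higher by 2-fold or more at 40 °C and 43.4% lower. These shares were 36.2% and 47% at 10 °C, and 31.4% and 48.3% at 20 °C. The part of these tissues in the members' differences was not tested.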

How the data were processed

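Whole medium workers were sequenced from oligo-dT-primed cDNA on an Illumina platform, per the labels' protocols, with 1 library at each temperature. The submitters' processing notes name RSEM, Bowtie 1.1.2, Trimmomatic 0.38 and FastQC 0.11.7. Neither assembler nor genome build is given in the sources used here. Every one of the 3 tables deposited by the authors sets 1 temperature against 30 °C. The deposited read counts were whole numbers. The authors' deposited log2 columns hold log2(CPM + 1), each library having its own scaled size, while the deposited FPKM values follow total reads. The authors' deposited fold score and p-value columns were used to describe the lists only, since no replicate enters them. In the table for 40 against 30 °C, 1 line was not analysed here.

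CPM ratios, log2 ratios with a pseudocount of 1 CPM, exact Clopper-Pearson 95% intervals of ratios and shares and exact Poisson intervals of levels were computed. Lacking molecular identifiers, reads are not independent molecules, and intervals cover counting error only. Contigs whose mean over both libraries reached 1 CPM were counted past 2-fold. The background is the filtered list, not all contigs assembled. A single read was worth between 0.0230 CPM (40 °C) and 0.0431 CPM (20 °C).

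Members and lists were chosen with earlier results of these data known. Every member is named. Of the chaperone list, matched by description, the up to 3 most abundant contigs a table are named, plus 1 gene marked in the text. LOC105199399 at 40 °C and LOC105194305 at 10 °C were also named, after their values were seen. Of neighbouring genes those listed are named. Gene names came from the tables, and all 3 gene numbers matched assembly UNIL_Sinv_3.0. No coordinates are given, since the authors' build is not named. Sequences were not analysed here. Alternatives were pseudocounts of 0.1 and 5 CPM, the FPKM scaling, no filter or 10 CPM, a 4-fold limit, members by gene number only, and contigs summed by gene. The ratios and intervals were tested on simulated independent Poisson counts, the model that the intervals assume. That run checks the computation only and holds no spread between ants or libraries. Computations used SciPy 1.17.1, numpy 2.4.6, pandas 2.3.3 and matplotlib 3.10.9 under Python 3.11.15.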

Additional observations from a re-analysis of the deposited data

How the results depend on the processing

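Of 20 alternative log2 ratios of members, 0 changed sign, 12 moved by less than one arm (0.5 of the full width, on the log2 scale) of that ratio's counting interval and 8 by more. On the FPKM scaling the log2 ratio at 40 °C was 2.18 for LOC105206242, 1.80 for LOC105199144, -1.09 for c99804_g1_i1 and -0.83 for LOC105195168. With a pseudocount of 5 CPM it was -1.37 for c99804_g1_i1 and -0.96 for LOC105195168 at 40 °C, and -1.74 for LOC105195168 at 10 °C, where 0.1 CPM gave -3.26. Adding a constant shrinks log2 ratios of low levels by construction. The count of members at least 2-fold lower at 40 °C, 2 in the report, was 1 with a pseudocount of 5 CPM, with the FPKM scaling or by gene number only, and 0 at a 4-fold limit, where the count of higher members was also 0. At 10 °C the 1 lower member became 0 with a filter of 10 CPM. Of other chaperones at least 2-fold higher, the 18 at 40 °C became 11 at 4-fold. The 3 at 10 °C became 1 with a pseudocount of 5 CPM or at 4-fold and 0 with a filter of 10 CPM. The 2 at 20 °C became 0 with a pseudocount of 5 CPM, the FPKM scaling, a filter of 10 CPM or at 4-fold. Of those at least 2-fold lower, the 1 at 40 °C became 0 with a pseudocount of 5 CPM, a filter of 10 CPM or at 4-fold, the 1 at 10 °C became 0 with a pseudocount of 5 CPM or a filter of 10 CPM, and the 0 at 20 °C became 1 with a pseudocount of 0.1 CPM or the FPKM scaling. The order of the members' levels was the same in CPM and FPKM at 40 and 30 °C. Summing contigs by gene could change no member value, since each gene had 1 listed contig a table and unlisted contigs could not enter. These unmoved values are among the 12 above. No paired analysis was possible because each group has 1 library. No library could be left out for the same reason, and depth limits precision most for the 52 reads of LOC105195168 at 10 °C.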
